A study of Saccharomyces cerevisiae with 12 samples.

Results

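The tricarboxylic acid cycle genes described here are 10 of the 7126 genes in a table of RNA levels from baker's yeast, Saccharomyces cerevisiae. They are CIT1, ACO1, IDH1, IDH2, KGD1, KGD2, LSC1, LSC2, FUM1 and MDH1, chosen by name as the mitochondrial enzymes of the cycle without succinate dehydrogenase. The study compared 4 groups of 3 libraries each. They were slt2 mutant cells given poacic acid at 100 µg/ml for 1 h, slt2 cells without the compound, wild-type cells given the compound in the same way, and wild-type cells without it. Both strains have the BY4741 background, a haploid laboratory strain of mating type a with its auxotrophic markers. Poacic acid (spelled poacid acid in the labels) is a plant stilbenoid that binds the beta-glucan of the cell wall. Slt2 is the MAP kinase of the cell wall integrity pathway. The comparisons ask how each strain's RNA levels change with the compound, whether those changes differ between the strains, and how the strains differ under each condition. The growth medium is not given in the sources used here, and the growth text names 2 h where the treatment text names 1 h.

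The cycle oxidises acetyl groups from pyruvate to carbon dioxide in the mitochondrial matrix and passes the electrons to the respiratory chain. It also supplies 2-oxoglutarate for glutamate and succinyl-CoA for haem. In yeast that ferments glucose most of these genes are held low by glucose, and they are activated by the CCAAT-binding HAP complex when cells respire. When respiration is impaired, the retrograde regulators Rtg1 and Rtg3, which bind a short site called the R box, keep the early steps from citrate synthase to isocitrate dehydrogenase expressed.

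All 10 genes have a single exon, and the spans in the deposited table matched RefSeq annotation of build R64 in 10 of 10. CIT1 (YNR001C) lies at chrXIV:629622-631061 on the minus strand, ACO1 (YLR304C) at chrXII:735212-737548 on the minus strand, and IDH1 (YNL037C) at chrXIV:557920-559002 on the minus strand. IDH2 (YOR136W) lies at chrXV:580250-581359, KGD1 (YIL125W) at chrIX:122689-125733 and LSC1 (YOR142W) at chrXV:593057-594046, all on the plus strand. KGD2 (YDR148C) lies at chrIV:753675-755066 and LSC2 (YGR244C) at chrVII:978036-979319, both on the minus strand. FUM1 (YPL262W) lies at chrXVI:47336-48802 and MDH1 (YKL085W) at chrXI:279123-280127, both on the plus strand. The start of IDH2 overlaps IRC14 on the other strand. Whether reads were counted by strand is not given in the sources used here, so reads of that overlap cannot be told apart.

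The 500 bases before each start codon were searched on both strands for letters linked to these regulators. CCAAT was found upstream of 8 of the 10 genes and of 63.4% of all 6659 genes searched. The longer HAP form TNATTGGT, which contains the complement of CCAAT, was found upstream of 1 of 10 and of 8.71% of all. The R box GGTCAC was found upstream of 2 of 10 and of 9.58% of all. LSC1 and LSC2 held none of the 3 in this window. The sequences below, read from the RefSeq R64 genome 5′ to 3′ on the coding strand of each gene, show the matches of the citrate synthase gene, whose RNA changed most among the members. Beside them are the HAP and R box matches, and the matches of both KGD genes. The CCAAT matches of IDH1, IDH2, FUM1 and MDH1, and 1 of the 2 in ACO1, are not shown. Capitals mark the matched letters, and a match is a description of the sequence, not evidence of binding.
CIT1 CCAAT, chrXIV:631337-631366: tacttttgtgttATTGGaggatcgcaatcc
ACO1 HAP, chrXII:737821-737850: caaaggtcctgACCAATCAatagagaaatt
ACO1 R box, chrXII:737982-738011: atgaatgacgccGGTCACacgcgggtgcct
IDH1 R box, chrXIV:559341-559370: tcgggcgtcataGGTCACtcatcaaccaac
KGD1 CCAAT, chrIX:122426-122455: cggtttagattcATTGGgtgtgtactattt
KGD1 CCAAT, chrIX:122359-122388: tacacataaatgATTGGcaaagggactgcg
KGD2 CCAAT, chrIV:755381-755410: gcccggagtgagCCAATaaagcggccacaa
KGD2 CCAAT, chrIV:755413-755442: ctttttttgcagCCAATcaaaactaaggtc
The CIT1 match began 293 bases before the start codon. The ACO1 matches began 291 (HAP) and 451 (R box) bases before it, and the IDH1 R box 356 bases before it.

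Levels are given as RPKM, reads scaled to gene length and to the size of the library, so that genes of different length can be set side by side. The libraries held 3462651 to 10542488 reads (median 6671236.5), and a gene of 1 kb with 3 reads would read 0.285 to 0.866 RPKM. The members had 291 (LSC2) to 4862 (ACO1) reads per library, so counting error is small for all of them. SLT2 itself read 0 to 0.198 RPKM in treated slt2 cells and 0 in the 3 untreated slt2 libraries, against 193.6 to 236 RPKM in treated and 42.1 to 49.99 RPKM in untreated wild-type cells. STE2, the receptor of a cells, read 107 to 331 RPKM and STE3, that of alpha cells, 0.293 to 2.02 RPKM, and the deleted BY4741 marker LEU2 was listed at 0 in all 12 libraries. The other markers looked at did not all go the same way. Of a-cell genes, BAR1 read 81.2 to 154 RPKM, but MFA1 read 0 to 7.47 and MFA2 0 to 26.8 RPKM. Of alpha-cell genes, MF(ALPHA)1 read 0 to 0.719 RPKM, but MF(ALPHA)2 read 4.96 to 11.1 RPKM. Of the auxotrophic markers, URA3 read 0 to 0.647 and MET17 0 to 0.134 RPKM, but HIS3 read 39.1 to 75.0 RPKM. The share of reads in ribosomal RNA genes was 4.62 to 4.93% in treated slt2, 3.76 to 5.18% in untreated slt2, 0.0763 to 3.83% in treated and 0.0716 to 0.585% in untreated wild-type libraries. It moves with strain, and its part in the strain comparisons was not tested. The share also varied within treated wild type, at 2.09% in replicate 1, 0.0763% in replicate 2 and 3.83% in replicate 3. Correlations across genes between the treated wild-type libraries went down to 0.954, the lowest value within any of the 4 groups. Which of these libraries was least like the others was not tested. RPKM are shares of each library, so changes are relative, and in bulk cultures fewer cells that express a gene and less RNA per cell cannot be told apart.

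The 10 genes read 40.6 to 239 RPKM. Aconitase ACO1 had the highest level of the 10 in 12 of 12 libraries. The lowest mean belonged to KGD1 in treated slt2 (74.0 RPKM), to CIT1 in untreated slt2 (45.9 RPKM) and to LSC2 in treated and untreated wild-type cells (79.6 and 49.4 RPKM). The highest mean was 2.76 times the lowest in treated slt2, against 4.75 times in untreated slt2, and 2.17 times in treated wild type, against 3.75 times in untreated wild type. Of the 9 pairs of neighbours in the order of means, the libraries of 6 overlapped in treated slt2, 4 in untreated slt2, 7 in treated wild type and 8 in untreated wild type, so neighbours in the order often do not differ beyond their spread. The summed level of the 10 genes was 1186 ± 92.3 RPKM in treated slt2, against 1085 ± 17.8 RPKM in untreated slt2, and 1132 ± 18.3 RPKM in treated wild type, against 1012 ± 71.2 RPKM in untreated wild type (SD, n = 3 each).

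**Figure D1:**
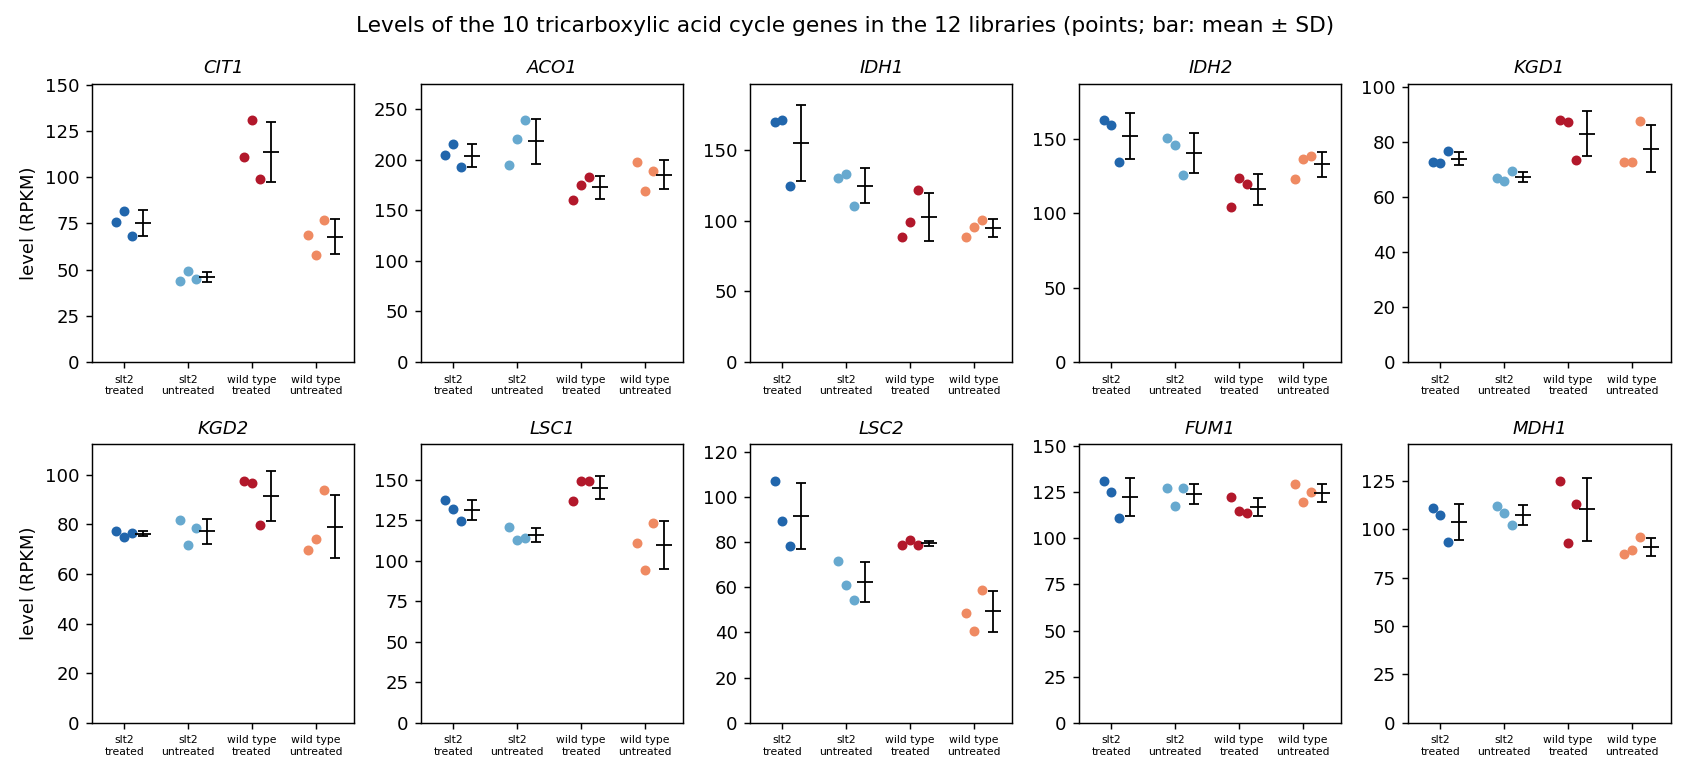
Level of each of the 10 genes in RPKM (vertical axes from 0, with a scale of its own for each gene) in the 12 libraries by group, with a point per library and the group mean ± SD beside it. CIT1, LSC1 and LSC2 have every treated library above every untreated library of the same strain.

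Differences were tested with limma on log2(RPKM + 1), with a mean for each group over all 12 libraries, and adjusted p is the Benjamini-Hochberg value over the 6222 genes that read at least 1 RPKM in at least 3 libraries. All 10 members passed that filter. A difference is called at an adjusted p below 0.05. The series text calls the 3 libraries of a group biological samples and does not say that they were separate cultures. The p-values set a difference between groups against the spread between these samples, which may be in part technical. That spread is shared over all 4 groups, so leaving out a library of 1 group can change a call in another. In wild-type cells 3 of the 10 genes rose with poacic acid (CIT1, LSC1 and LSC2) and 0 fell, where 5.83% of all tested genes were called, 3.87% higher and 1.96% lower. In slt2 cells 2 of the 10 rose (CIT1 and LSC2) and 0 fell, where 8.45% of all tested genes were called, 5.29% higher and 3.17% lower. With a block for the biological sample, 671 in place of 363 genes were called in wild type and 179 in place of 107 for the difference of the responses, and the member counts were the same. Over all genes, the 526 calls in slt2 ran from 231 to 671 when 1 library was left out, with 280 and 231 without treated slt2 replicates 1 and 2, and 347 and 240 without untreated slt2 replicates 1 and 3. The 363 calls in wild type ran from 156 to 552, with 552 and 171 without treated wild-type replicates 2 and 3, and 164 and 156 without untreated wild-type replicates 1 and 2. The median log2 fold change of the members was 0.16 in wild type, against 0.02 over all tested genes, and 0.12 in slt2, against 0.03 over all.

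**Figure D2:**
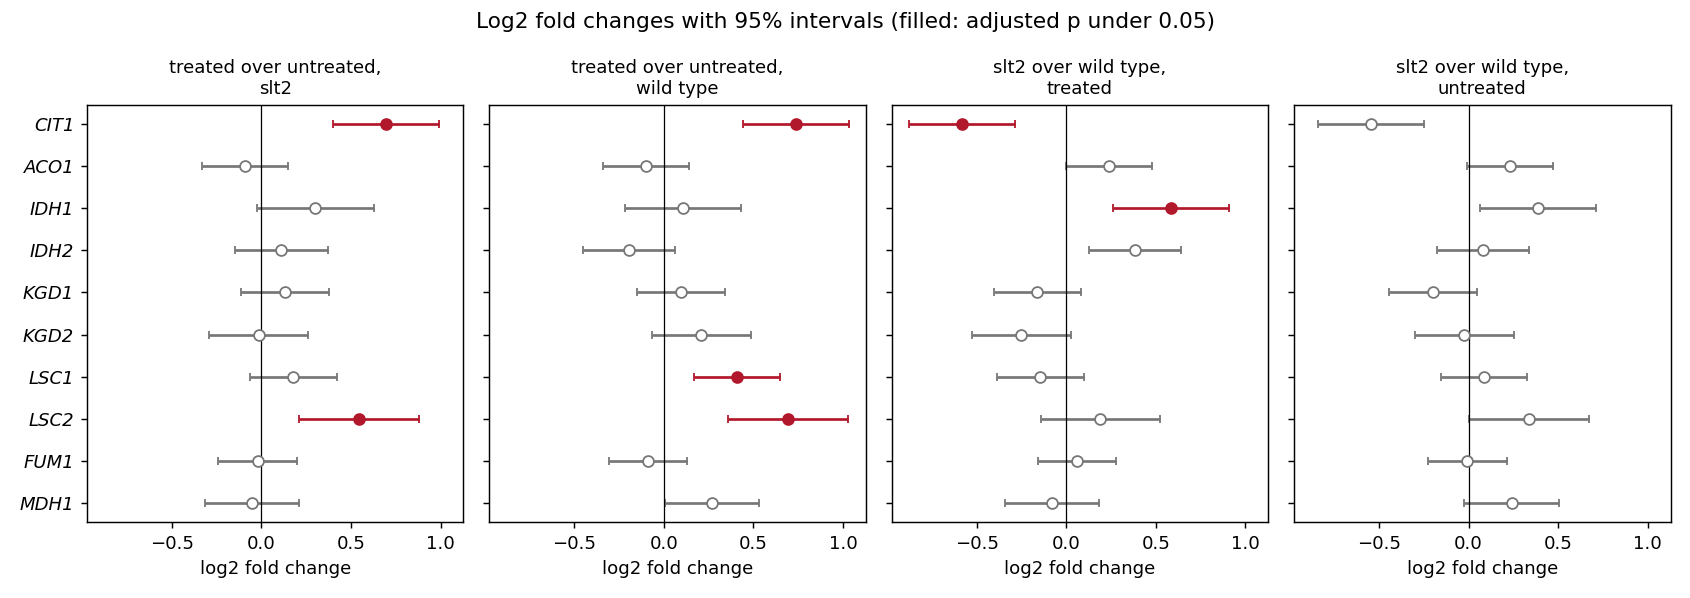
Log2 fold change of each of the 10 genes in the 2 responses (treated over untreated) and the 2 strain comparisons (slt2 over wild type), with 95% intervals from limma and filled points for called genes. CIT1 lies above 0 in both responses and below 0 in both strain comparisons, and most other intervals of the responses cross 0.

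CIT1 encodes the mitochondrial citrate synthase, which joins acetyl-CoA and oxaloacetate at the entry to the cycle. It read 75.5, 81.8 and 68.2 RPKM in treated slt2 cells, against 43.9, 49.2 and 44.6 RPKM in untreated slt2 cells. In wild type it read 111, 131 and 98.8 RPKM in treated cells, against 68.4, 57.8 and 77.1 RPKM in untreated cells. Treated libraries lay above untreated ones in both strains without overlap, and slt2 libraries lay below wild-type ones without overlap under both conditions. The rise was 0.70 ± 0.14 on the log2 scale in slt2 (SE, adjusted p = 0.00651, limma) and 0.74 ± 0.14 in wild type (adjusted p = 0.00636), and both were called after leaving out any 1 of the 12 libraries. The difference between the 2 responses was -0.04 (adjusted p = 0.956, limma). Its 95% interval of -0.46 to 0.38 gives the differences, of either sign, that remain compatible with these data. The interval is not a limit of detection. In treated cells CIT1 was lower in slt2 than in wild type by a log2 fold change of -0.58 ± 0.14 (adjusted p = 0.0163), a call lost without treated wild-type replicate 2 (adjusted p = 0.0656) or treated slt2 replicate 1 (0.0562) or 3 (0.0549). In untreated cells the value was -0.54 (adjusted p = 0.0629), which was not called.

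ACO1 encodes aconitase, which turns citrate into isocitrate and also binds mitochondrial DNA. Its level was 204 ± 11.5 RPKM in treated slt2, against 218 ± 22.2 RPKM in untreated slt2, and 173 ± 11.2 RPKM in treated wild type, against 185 ± 14.5 RPKM in untreated wild type (SD, n = 3 each). Treated and untreated libraries overlapped in both strains, and ACO1 was not called in any of the 5 comparisons. The 95% intervals of its log2 response, -0.33 to 0.15 in slt2 and -0.34 to 0.14 in wild type, lie below those of CIT1, 0.40 to 0.99 in slt2 and 0.44 to 1.03 in wild type. Treated slt2 libraries lay above treated wild-type ones without overlap, by an uncalled 0.24 on the log2 scale (adjusted p = 0.215, limma). The log2 ratio of CIT1 to ACO1 within a library was -1.44 ± 0.05 in treated slt2, against -2.24 ± 0.15 in untreated slt2, and -0.61 ± 0.25 in treated wild type, against -1.46 ± 0.14 in untreated wild type (SD, n = 3 each).

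IDH1 and IDH2 encode the regulatory and catalytic subunits of the NAD-dependent isocitrate dehydrogenase, which makes 2-oxoglutarate. IDH1 read 170.0, 171.5 and 124 RPKM in treated slt2 cells, against 130.4, 133.5 and 111 RPKM in untreated slt2 cells. In wild type it read 88.2, 99.0 and 122 RPKM in treated cells, against 88.4, 95.7 and 100.6 RPKM in untreated cells. Every slt2 library lay above every wild-type library of the same condition, while treated and untreated libraries overlapped within each strain. In treated cells IDH1 was higher in slt2 than in wild type by 0.59 ± 0.15 on the log2 scale (SE, adjusted p = 0.0270, limma). That call was lost without treated wild-type replicate 1 (adjusted p = 0.111) or 2 (0.0796) or treated slt2 replicate 1 (0.121) or 2 (0.129). In untreated cells the value was 0.39 (adjusted p = 0.144), which was not called.

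IDH2 averaged 152 ± 15.6 RPKM in treated slt2 and 116 ± 10.3 RPKM in treated wild type (SD, n = 3 each). These libraries did not overlap, and the difference of 0.39 on the log2 scale was not called (adjusted p = 0.0651, limma). Its means in untreated cells were 141 ± 13.5 RPKM in slt2 and 133 ± 8.49 RPKM in wild type. The ratio of IDH1 to IDH2, taken within each library as log2 of the RPKM, was 0.02 ± 0.11 in treated slt2, -0.18 ± 0.04 in untreated slt2, -0.18 ± 0.18 in treated wild type and -0.49 ± 0.03 in untreated wild type (SD, n = 3 each). The 3 untreated wild-type libraries, at linear ratios of 0.699 to 0.725, lay below the 9 others.

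KGD1 and KGD2 encode the E1 and E2 components of 2-oxoglutarate dehydrogenase, which makes succinyl-CoA. KGD1 read 72.9, 72.5 and 76.6 RPKM in treated slt2 cells, against 66.98, 65.8 and 69.4 RPKM in untreated slt2 cells. The treated libraries lay above the untreated ones, but the log2 fold change of 0.13 was not called. KGD2 averaged 76.3 ± 1.10 RPKM in treated slt2 and 77.3 ± 5.09 RPKM in untreated slt2, and 91.4 ± 10.1 RPKM in treated wild type and 79.2 ± 12.8 RPKM in untreated wild type (SD, n = 3 each). Neither gene was called in any of the 5 comparisons. Their log2 ratio, KGD1 over KGD2, stayed between -0.20 and -0.02 as group means. LPD1, which encodes the E3 component shared with pyruvate dehydrogenase, averaged 173 RPKM in treated and in untreated slt2 and was not called in any comparison either.

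LSC1 and LSC2 encode the alpha and beta subunits of succinyl-CoA ligase, the step that makes ATP directly from a cycle intermediate. LSC2 read 107, 89.3 and 78.5 RPKM in treated slt2 cells, against 71.8, 61.0 and 54.4 RPKM in untreated slt2 cells. In wild type it read 78.9, 81.0 and 78.8 RPKM in treated cells, against 48.7, 40.6 and 58.9 RPKM in untreated cells. Treated libraries lay above untreated ones in both strains without overlap. The rise was 0.55 ± 0.16 on the log2 scale in slt2 (SE, adjusted p = 0.0445, limma) and 0.69 ± 0.16 in wild type (adjusted p = 0.0183). The wild-type call was lost without treated wild-type replicate 3 (adjusted p = 0.0529) or untreated wild-type replicate 1 (0.0657) or 2 (0.101). The slt2 call was lost without treated slt2 replicate 1 or 2, untreated slt2 replicate 2 or 3, treated wild-type replicate 1 or untreated wild-type replicate 1, with adjusted p up to 0.193.

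LSC1 read 137, 132 and 125 RPKM in treated slt2 cells, against 121, 113 and 114 RPKM in untreated slt2 cells. In wild type it read 137, 149 and 149.6 RPKM in treated cells, against 111, 94.6 and 124 RPKM in untreated cells. Treated libraries again lay above untreated ones without overlap in both strains. The rise was 0.41 ± 0.11 on the log2 scale in wild type (SE, adjusted p = 0.0490, limma), while the slt2 value of 0.18 (adjusted p = 0.390) was not called. The wild-type call lies at the threshold and held after leaving out 1 of the 12 libraries in turn, untreated wild-type replicate 3, with adjusted p up to 0.219 without the others. The difference between the 2 responses was not called, with a 95% interval of -0.57 to 0.11 on the log2 scale. The log2 ratio of LSC1 to LSC2 was 0.53 ± 0.16 in treated slt2, against 0.90 ± 0.16 in untreated slt2, and 0.87 ± 0.07 in treated wild type, against 1.16 ± 0.08 in untreated wild type (SD, n = 3 each).

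**Figure D3:**
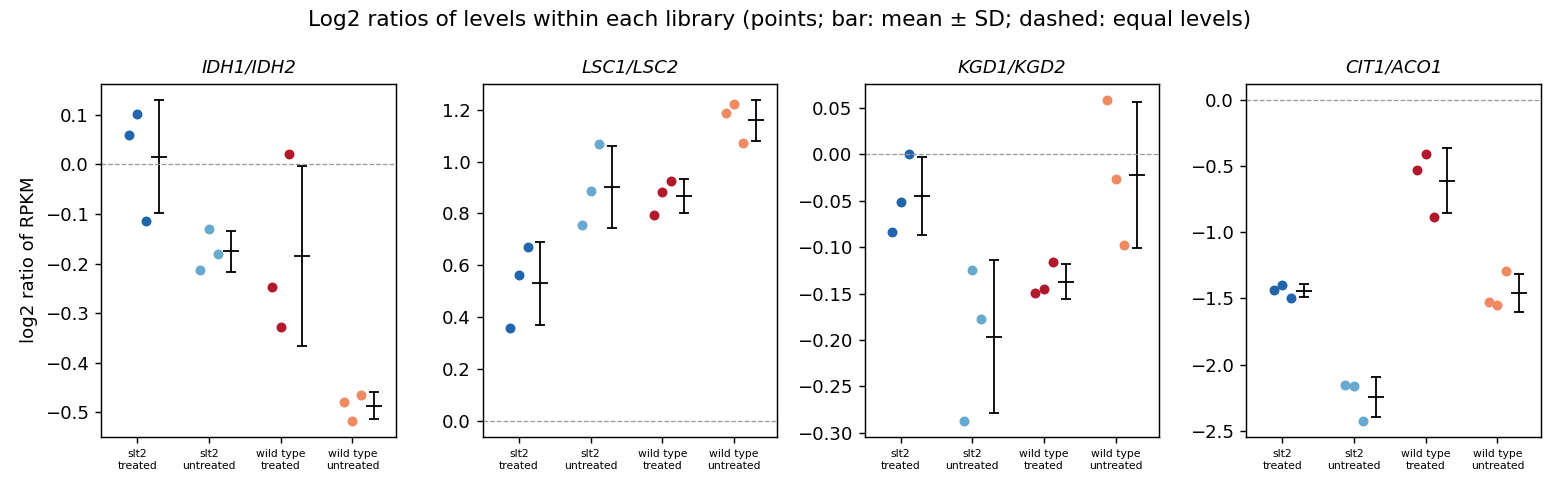
Log2 ratio of RPKM between subunits or neighbouring enzymes within each library (points) by group, with the group mean ± SD beside them and a dashed line at equal levels. The LSC1 to LSC2 ratio is lower in treated than in untreated libraries of each strain, and the IDH1 to IDH2 ratio is lowest in untreated wild type. With 3 against 3 libraries these are descriptions, with no test.

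FUM1 encodes fumarase, which occurs in mitochondria and the cytosol, and MDH1 encodes the mitochondrial malate dehydrogenase, which regenerates oxaloacetate. FUM1 averaged 122 ± 10.4 RPKM in treated slt2, 124 ± 5.53 RPKM in untreated slt2, 117 ± 4.90 RPKM in treated wild type and 125 ± 4.95 RPKM in untreated wild type (SD, n = 3 each). Its response intervals on the log2 scale, -0.24 to 0.20 in slt2 and -0.31 to 0.13 in wild type, both include 0. MDH1 averaged 104 ± 9.18 RPKM in treated slt2 and 107 ± 5.04 RPKM in untreated slt2, and 110 ± 16.4 RPKM in treated wild type and 90.8 ± 4.45 RPKM in untreated wild type. Its wild-type response of 0.27 on the log2 scale was not called (adjusted p = 0.226, limma). Untreated slt2 libraries of MDH1 lay above untreated wild-type ones without overlap, with an uncalled log2 fold change of 0.24.

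Across the 10 genes, treated libraries lay above untreated ones without overlap for 4 in slt2 (CIT1, KGD1, LSC1 and LSC2), where 18.2% of all tested genes did so. The same held for 3 in wild type (CIT1, LSC1 and LSC2), where 13.2% of all tested genes did so. Treated libraries lay below untreated ones for 0 of the 10 in slt2, where 12.8% of all did so, and for 0 in wild type, where 9.39% did so. For the difference of responses 0 of 10 were called by limma and 0 had an unadjusted p under 0.05, where 1.72% of all tested genes were called, 0.723% higher and 0.996% lower. The member values ran from -0.32 (MDH1) to 0.31 (IDH2) on the log2 scale. Between untreated strains 0 of 10 were called and 3 had an unadjusted p under 0.05, where 1.75% of all tested genes were called, 0.884% higher and 0.868% lower. There, slt2 lay above wild type without overlap for IDH1 and MDH1, where 11.3% of all genes did so, and below it for CIT1 and KGD1, where 23.8% did so. Between treated strains 2 of 10 were called, IDH1 higher and CIT1 lower in slt2, where 8.21% of all tested genes were called, 3.99% higher and 4.23% lower. There, ACO1, IDH1 and IDH2 lay above without overlap, where 8.94% of all did so, and CIT1 and KGD2 below, where 14.1% did so. The treated groups enter both a response and the treated strain comparison, so these values are not independent of each other.

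Over the 12 libraries the members did not vary as 1 block. Of the 45 pairs, 11 had a Pearson correlation of log2 levels over 0.5 and 18 were below 0, with a median of 0.14. The highest were LSC1 with LSC2 (0.85), KGD1 with KGD2 (0.84) and IDH1 with IDH2 (0.81), the pairs that encode subunits of 1 enzyme. The lowest was ACO1 with KGD1 (-0.66). The 12 libraries share 4 groups, so these are descriptions. The tested genes outside the members whose levels were most like the members' mean standardised level were GSY2 (r = 0.94), a glycogen synthase, VHS3 (0.92), COX5B (0.91), a subunit of cytochrome c oxidase, RTK1 (0.91), MTH1 (0.90), a regulator of glucose transporter genes, and SHY1 (0.90), which helps assemble cytochrome c oxidase. They were picked as the highest r over all tested genes, on 12 values each. The mean standardised level also varied between libraries of 1 group. It ran from -0.92 to 0.17 in untreated wild type and from -0.22 to 0.75 in treated slt2.

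The genes around the cycle were described from 8 lists with 8 to 11 genes each. Succinate dehydrogenase, the step between succinyl-CoA ligase and fumarase, had 0 of 8 genes called by limma in slt2 (1 with an unadjusted p under 0.05) and 0 of 8 in wild type (3 with one). Over all tested genes 8.45% were called in slt2 and 5.83% in wild type, the shares to hold beside the counts of every list. A count of 0 of 8 is near those shares. The log2 fold changes of the 8 succinate dehydrogenase genes had a median of 0.22 in slt2, where 7 of 8 were positive. Their median was 0.44 in wild type, where 8 of 8 were positive. The medians over all tested genes were 0.03 in slt2 and 0.02 in wild type. Among isozymes outside the mitochondrial cycle, CIT2, the peroxisomal citrate synthase, averaged 167 RPKM in treated slt2, against 92.0 RPKM in untreated slt2, and rose by 0.84 ± 0.18 on the log2 scale (SE, adjusted p = 0.0121). That call was lost without treated slt2 replicate 1 or 2 or untreated slt2 replicate 3, with adjusted p up to 0.0739. In wild type CIT2 averaged 127 RPKM in treated against 88.2 RPKM in untreated cells, without overlap. That log2 fold change of 0.51 was not called (adjusted p = 0.121, limma). The difference of the CIT2 responses was 0.32 and was not called either (adjusted p = 0.686).

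The carriers and the reactions that feed the cycle included MPC3 and PYC1, whose changes in slt2 held after leaving out any 1 of the 12 libraries. MPC3, a subunit of the mitochondrial pyruvate carrier, averaged 33.8 ± 2.5 RPKM in treated slt2, against 6.49 ± 1.9 RPKM in untreated slt2 (SD, n = 3 each), and rose by 2.25 ± 0.25 on the log2 scale (SE, adjusted p = 8.49e-05, limma). It was also higher in treated slt2 than in treated wild type, at 11.2 RPKM, by 1.55 (adjusted p = 0.00113). The difference of its 2 responses was 1.28 and was not called (adjusted p = 0.0992). PYC1, a pyruvate carboxylase that makes oxaloacetate, averaged 208 RPKM in treated slt2, against 105 RPKM in untreated slt2, with a log2 fold change of 0.96 (adjusted p = 0.00161). Against treated wild type, at 100.1 RPKM, it was higher by 1.05 (adjusted p = 0.000547). The wild-type response of PYC1 was 0.17 and was not called (adjusted p = 0.588, limma). The difference of its 2 responses was 0.79 and was not called either (adjusted p = 0.0992). The carrier list had 1 of its 10 tested genes called higher and 0 lower in slt2 (MPC3), where 8.45% of all tested genes were called. In wild type it had 1 higher (MPC3) and 1 lower (MPC1), where 5.83% of all were called. The wild-type calls held without 5 (MPC3) and 2 (MPC1) of the 12 libraries, with adjusted p up to 0.178 and 0.181 without the rest. MPC3 kept its call without treated wild-type replicate 1, untreated wild-type replicate 1, treated slt2 replicate 3 or untreated slt2 replicate 1 or 3, and MPC1 without treated wild-type replicate 2 or untreated wild-type replicate 3. The glyoxylate and anaplerotic list had 2 of 8 higher (PYC1 and ICL2) and 0 lower in slt2, where 5.29% of all tested genes were called higher and 3.17% lower, and 0 called in wild type by limma, with 2 at an unadjusted p under 0.05. ICL2 lost its call without treated slt2 replicate 1 or 2 or untreated slt2 replicate 2 or 3, with adjusted p up to 0.178.

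Of the regulators, HAP4, the activating subunit of the HAP complex, averaged 7.61 RPKM in treated slt2, against 17.7 RPKM in treated wild type. It was lower by a log2 fold change of -1.13 ± 0.22 (SE, adjusted p = 0.00489, limma), and the call held after leaving out any 1 library. In untreated cells HAP4 averaged 9.48 RPKM in slt2, against 18.7 RPKM in wild type, also without overlap. That log2 fold change of -0.84 was not called (adjusted p = 0.0692, limma). The difference of the HAP4 responses was -0.28 and was not called either (adjusted p = 0.783). HAP1, a haem-responsive activator, was higher in treated slt2 than in treated wild type by 0.60 (adjusted p = 0.0263). That call was lost without treated wild-type replicate 2 or treated slt2 replicate 1 or 2 (adjusted p up to 0.108). In the responses themselves 0 of 10 tested genes of this list were called by limma in slt2, with 2 at an unadjusted p under 0.05, and 0 in wild type, with 0 at that level. Over all tested genes 8.45% were called in slt2 and 5.83% in wild type. The retrograde list had 3 of 11 genes called higher and 0 lower in slt2 (PYC1, CIT2 and DLD3), against 5.29% higher and 3.17% lower over all tested genes. Of these, PYC1 is also counted in the list above and CIT2 among the isozymes. In wild type 0 of the retrograde list were called by limma, with 2 at an unadjusted p under 0.05. The DLD3 call in slt2 was lost without treated slt2 replicate 1 or 2 or untreated slt2 replicate 3, with adjusted p up to 0.081. DLD3, a cytosolic enzyme of 2-hydroxyglutarate metabolism, averaged 261 RPKM in treated slt2, against 178 RPKM in untreated slt2, and 195 RPKM in treated wild type, against 240 RPKM in untreated wild type. It was the only gene of the 8 lists with a called difference of responses, 0.85 (adjusted p = 0.0216, limma). Over all tested genes 1.72% had such a call, and 1 gene over the 8 lists is near that share. The DLD3 call was lost after leaving out each of 6 of the 12 libraries, with adjusted p up to 0.0734. Those were untreated wild-type replicates 1 and 2, treated slt2 replicates 1 and 2, and untreated slt2 replicates 1 and 3.

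Among genes of 2-oxoglutarate and glutamate metabolism, 2 of 9 rose (GDH2 and UGA1) and 1 fell (AAT1) in slt2, where 5.29% of all tested genes were called higher and 3.17% lower. In wild type 0 were called by limma, with 2 at an unadjusted p under 0.05. GDH2, the NAD-dependent glutamate dehydrogenase that returns glutamate to 2-oxoglutarate, averaged 22.7 RPKM in treated slt2, against 11.8 RPKM in untreated slt2, with a log2 fold change of 0.87 (adjusted p = 0.0135), lost without treated slt2 replicate 2 or untreated slt2 replicate 3 (up to 0.0829). UGA1 held without any 1 of the 3 treated wild-type libraries, treated slt2 replicate 3 or untreated slt2 replicate 1, with adjusted p up to 0.204 without the others. AAT1 held without treated wild-type replicate 2 or 3, untreated wild-type replicate 3 or treated slt2 replicate 3, with adjusted p up to 0.209 without the others. For pyruvate dehydrogenase, its regulators and the shared E3 component, 0 of 10 were called in slt2 by limma, with 1 at an unadjusted p under 0.05. Over all tested genes 8.45% were called in slt2. In wild type 1 gene of this list rose, where 3.87% of all tested genes were called higher. It was the kinase gene PKP1, which averaged 29.9 RPKM in treated against 19.0 RPKM in untreated cells (log2 fold change 0.62, adjusted p = 0.0454). The wild-type call of PKP1 held without treated wild-type replicate 1 or 2 or treated slt2 replicate 3. The other 9 libraries each ended that call when left out, with adjusted p up to 0.201. In slt2 PKP1 averaged 39.2 RPKM in treated against 26.7 RPKM in untreated cells, without overlap. That log2 fold change of 0.53 was not called (adjusted p = 0.0688, limma). The difference of its responses was -0.09 (adjusted p = 0.914).

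Between untreated strains the only gene of the 8 lists that was called was MPC1, a subunit of the pyruvate carrier, at 17.4 RPKM in slt2 and 34.4 RPKM in wild type (log2 fold change -0.94, adjusted p = 0.0408). It held without treated wild-type replicate 2 or 3 or treated slt2 replicate 3, with adjusted p up to 0.16 without the others. Over all tested genes 1.75% were called between untreated strains and 8.21% between treated strains, the shares to hold beside these calls. For untreated strains, 1 called gene over the 8 lists is near that share. Between treated strains the other calls were ICL1 (isocitrate lyase), MAE1 (malic enzyme), MPC2 (pyruvate carrier) and GLN1 (glutamine synthetase), higher in slt2 by 0.52 to 0.74 on the log2 scale, and AAT1 (mitochondrial aspartate aminotransferase), lower by a log2 fold change of -0.65. Each of these 5 was lost without treated slt2 replicate 2. Without treated slt2 replicate 1, MPC2 alone of the 5 held. Without replicate 3 of treated slt2, ICL1, MAE1 and GLN1 were lost. Without treated wild-type replicate 1, ICL1, MPC2 and AAT1 were lost, and without replicate 2, ICL1, MAE1 and GLN1. MAE1 was also lost without untreated wild-type replicate 1 or untreated slt2 replicate 1 or 2. Adjusted p was at most 0.131 in these fits. With a block for the replicate number over both strains, that of ICL1 was 0.0529 (limma). Same-numbered libraries of the 2 strains are not 1 biological sample. Between untreated strains MAE1 was also higher in slt2 without overlap, by an uncalled 0.85 on the log2 scale (adjusted p = 0.0525, limma).

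**Figure D4:**
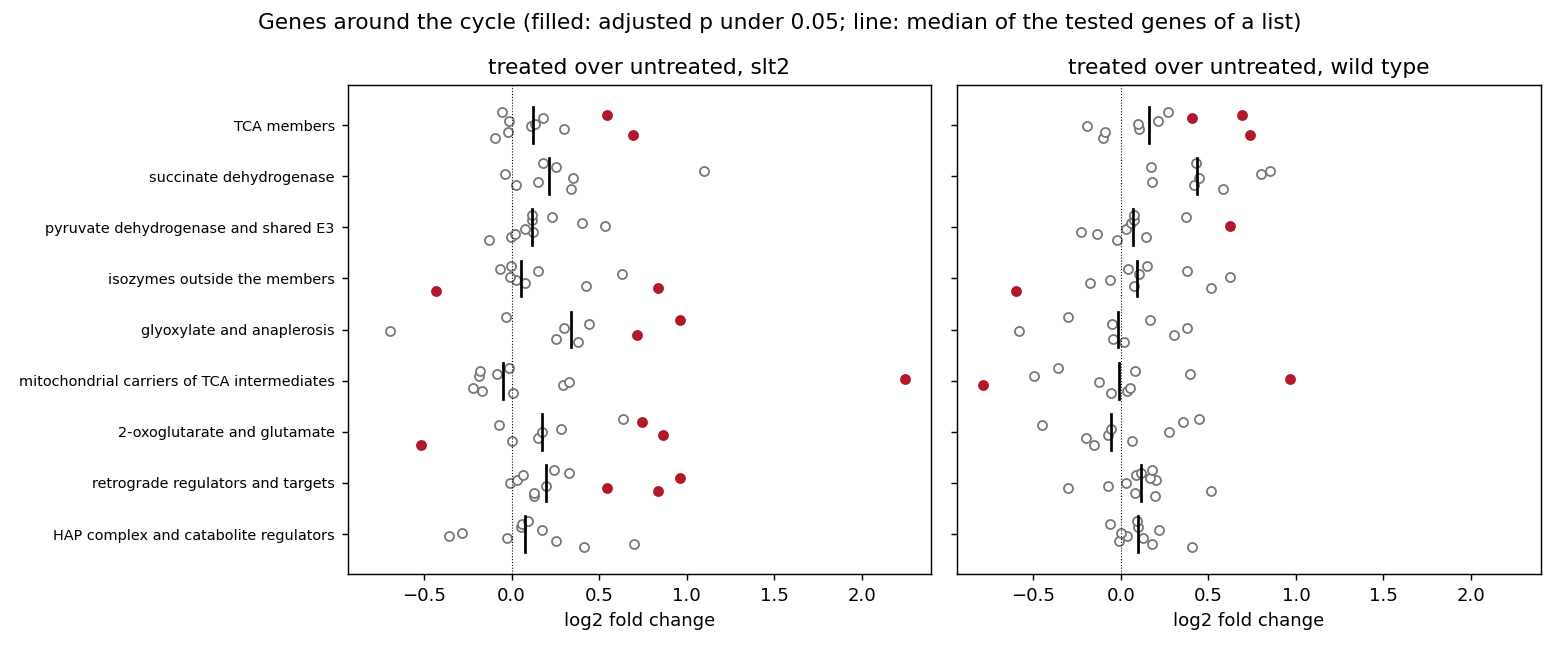
Log2 fold change of the genes of each list in the 2 responses, with a point per gene filled points for genes called at an adjusted p below 0.05 and a line at the median of each list. The members hold 2 called genes in slt2 and 3 in wild type, and MPC3 in slt2 is the largest value at 2.25.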

How the data were processed

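RNA of 12 samples was depleted of ribosomal RNA and made into libraries with a strand-specific kit, per the labels' protocols, and the submitters' processing notes name build R64. The deposited table, per the file headers, gives RPKM per gene as the authors computed them, with a comma as the decimal mark. Aligner, counter and strand setting: not given in the sources used here. The size of 1 read was recovered from the steps between low values of single-exon genes (whole within 0.01 read), which gave the totals of 3462651 to 10542488 reads.

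Log2 values of the deposited RPKM plus a pseudocount of 1 were fitted with limma 3.58.1 (R 4.3.3, intensity trend, robust variances) for the 6222 genes that passed the filter, in 5 comparisons, and p-values were adjusted by Benjamini-Hochberg over those genes. Fold changes on this scale understate changes of low genes. The planned count test was not used because the table holds RPKM. The steps were tested on simulated data. Other settings were another pseudocount, no or a stricter filter, other scalings, other variance models, only the compared groups, a replicate block and leaving out each library. Genes of the surrounding lists were named by adjusted p, at most 4 per comparison and list. A result on 1 gene of the isozyme list is not reported here. The members and lists were chosen with earlier results of these data known.

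The series text says that each biological sample was used with and without the compound, and same-numbered libraries were taken as its pairs. Their deviations from the group means correlated at 0.03, 0.23 and 0.33 in slt2 and at -0.14, 0.27 and -0.03 in wild type. Libraries of different numbers correlated at -0.35 to 0.19 in slt2 and at -0.18 to 0.23 in wild type. In wild type, treated replicate 1 with untreated replicate 3 and treated 3 with untreated 1 each gave 0.23, above the same-numbered values of these libraries. Whether the numbers mark the pairs was not tested, and the block results rest on them. Chromosome positions, exons and sequences are from RefSeq R64.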

Additional observations from a re-analysis of the deposited data

How the results depend on the processing

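Of 1140 values of member fold changes under other settings, 1094 stayed on the same side of the threshold, 36 lost the call and 10 gained it. Of the 1094, the sign of 40 changed, all uncalled before and after, with sizes up to 0.102 on the log2 scale. In the slt2 response the count of 2 members fell to 1 without the trend and robust variances and to 1 with only the compared groups. Between untreated strains the count of 0 became 2 with library weights (IDH1 higher, CIT1 lower) and 1 with only the compared groups (CIT1, adjusted p = 0.0292, limma). Between treated strains the count of 2 became 1 without the trend and robust variances, 4 with library weights (3 higher, 1 lower) and 0 with only the compared groups. Over all genes, library weights called 1375 in place of 511 between treated strains and 1142 in place of 109 between untreated strains. With only the compared groups 330 were called between treated and 729 between untreated strains. Without the trend and robust variances 455 were called between treated strains. The causes were not tested. Of 11 other settings, CIT1 was called in 11 in both responses, LSC2 in 11 in wild type and 9 in slt2, LSC1 in 7 in wild type, and between treated strains CIT1 in 10 and IDH1 in 9. Leaving out each library gave 1 to 3 members in the wild-type response, 1 to 2 in the slt2 response, 0 to 0 for the difference, 0 to 1 between untreated and 0 to 2 between treated strains. Over all genes the calls ran from 62 without treated slt2 replicate 2 to 164 without treated wild-type replicate 2 for the difference, and from 327 without treated slt2 replicate 1 to 874 without treated wild-type replicate 3 between treated strains. They ran most widely between untreated strains, from 3 without untreated slt2 replicate 1 to 604 without treated wild-type replicate 3. With the replicate block for the biological sample within each strain, the member counts were 3 in wild type, 2 in slt2 and 0 for the difference. The strain comparisons used a block for the replicate number over both strains, which does not mark 1 biological sample. There the counts were 0 between untreated and 2 between treated strains. Among the calls reported here the block ended that of ICL1 between treated strains (adjusted p = 0.0529). Rescaling to nuclear protein-coding genes moved the all-gene median of the wild-type response to 0.12, against 0.02, and the share of calls that were higher to 84.4%, against 66.4%. Between untreated strains that share was 68.3% with median-of-ratios scaling, 63.1% with quantile normalization and 70.3% with rescaling, against 50.5%, and it was 37.6% with library weights (1142 calls), 39.2% with only the compared groups (729) and 37.4% without treated wild-type replicate 3 (604). In the wild-type response the share was also 80.7% with only the compared groups and 54.1% with the replicate block. For the difference it was 56.4% with library weights and 53.6% with the replicate block, against 42.1%. All values rest on 3 libraries a group.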
